A study of Mus musculus and Rattus norvegicus with 24 samples.

Results

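The brain tissue around the territory of a blocked artery was examined in mice 6 h after the middle cerebral artery was blocked for good (pMCAO, permanent occlusion). The members were chosen by title: the 3 arrays of pMCAO mice and the 3 arrays of sham-operated mice at 6 h, which are 6 of the 24 arrays of the series. The other 18 arrays hold mice at 2 h and rats at both times. Every gene on the mouse array with a single symbol in the platform annotation was taken, using the brightest transcript cluster (the array's unit for 1 transcript locus) per symbol, which gave 22180 genes from 41345 clusters.

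Both groups were adult male C57BL/6 mice, 8 to 10 weeks old and weighing 21.9 to 29.7 g, assigned at random. Under isoflurane a filament was passed up to the origin of the right middle cerebral artery and tied there for good, so no reperfusion followed. The sham mice had the same operation without the occlusion. A block of 3 by 3 mm was cut from the penumbra, or from the matching place on the same side in sham mice, and each array holds the RNA of 1 mouse. The titles, source names and descriptions give 6 h for these mice, but the label for time itself gives 2 h throughout the series. The titles were followed.

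The penumbra is the rim of an ischaemic lesion in which blood flow is too low for neurons to fire normally but still high enough to keep many of them alive for hours. Cells in this rim are known to switch on immediate early genes as they depolarise, chaperones as proteins misfold, and genes of the hypoxia and DNA damage responses. Microglia, the resident macrophages of the brain, respond within hours with cytokines and chemokines, and blood leukocytes follow later. The comparison asks which transcripts differ between occluded and sham tissue at a time when these programmes overlap.

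The deposited values are log2 expression values, on which a difference of 1 is a doubling, and the files hold no counts and no detection calls. The first principal component of the 6 arrays held 41.8% of the variance and placed the pMCAO arrays between -18.2 and -14.4 and the sham arrays between 13.9 and 18.4. Markers of cortical excitatory neurons averaged 8.83 to 8.99 per array, those of astrocytes 8.83 to 9.07 and those of oligodendrocytes 9.0 to 9.34. Levels of different probes cannot be compared, so these values describe the arrays and do not measure cell content. In the tests below, limma was fitted over all 12 mouse arrays and p-values were adjusted by the Benjamini-Hochberg method over all 22180 genes. Errors of single groups are SDs over 3 mice and errors of differences are standard errors (SE), in log2 units. With 3 mice against 3, the smallest p an exact permutation test can reach is 0.1, and the tests of single genes are those of this fit.

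At an adjusted p of 0.05, 711 genes were higher after pMCAO (3.21% of those tested) and 938 were lower (4.23%). These shares are the ones to set beside each count of list members below. The median rise was 0.45 and the median fall -0.34. Rises of at least 1 on the log2 scale numbered 49, and falls of that size 11. Without sham replicate 3 the counts were 318 higher and 298 lower, without sham replicate 2 they were 405 and 456, and without pMCAO replicate 3 they were 444 and 507. The lower count was also 510 without pMCAO replicate 2 and 564 without sham replicate 1. Of all 22180 genes, 10.7% had every pMCAO array above every sham array and 14.6% had every one below. Among called genes this separation held for 709 of the 711 higher and 936 of the 938 lower. Where it is given for a called gene below, it describes the values and adds little to the call.

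**Figure D1:**
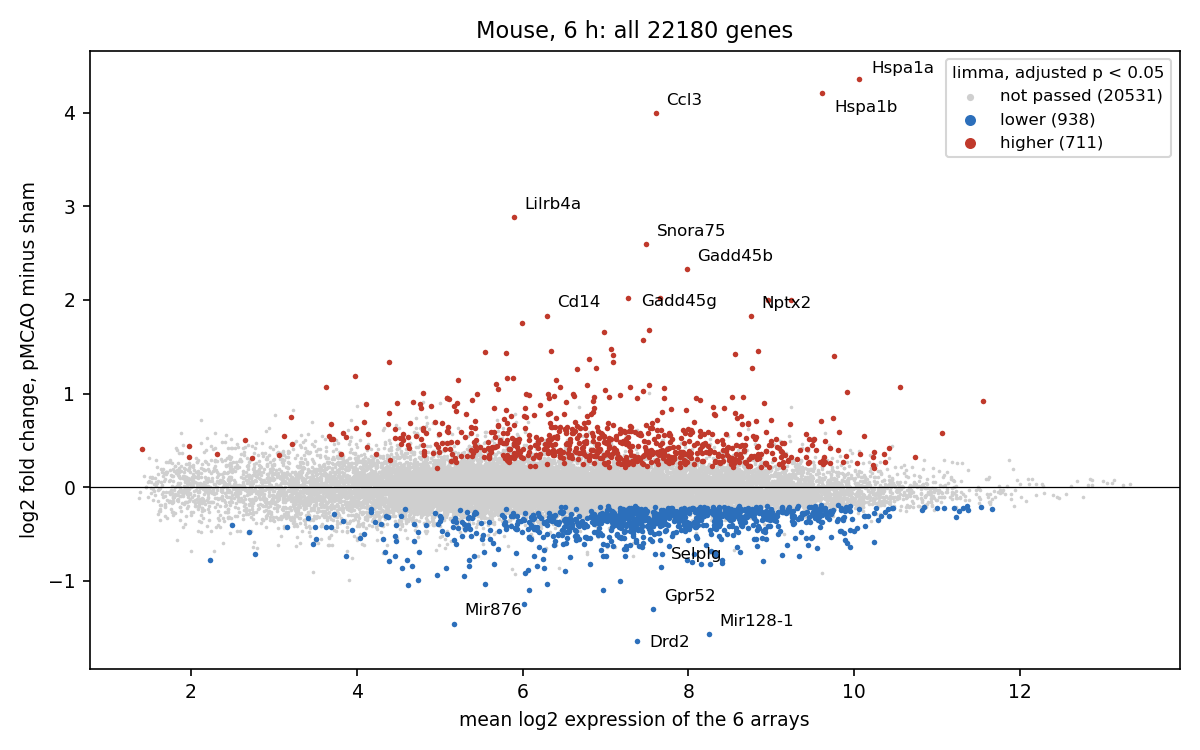
Each point is 1 of 22180 genes, with the mean log2 expression of the 6 arrays on the x axis and the log2 fold change (pMCAO minus sham) on the y axis. Red points are the 711 genes past the threshold and higher, blue points the 938 lower and grey points the rest. The largest rises reach 4.36 (Hspa1a) and the largest fall -1.64 (Drd2).

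Markers of striatal neurons differed between the arrays. The mean level of 14 markers of striatal projection neurons was 7.14, 7.06 and 7.0 in pMCAO replicates 1 to 3, and 7.93, 7.27 and 8.13 in sham replicates 1 to 3. Sham replicate 2 thus lay near the pMCAO arrays. All 14 markers were lower after pMCAO, with a median difference of -0.68, and 4 of them passed. In bulk tissue, fewer cells of a type and less RNA per cell cannot be told apart. With this mean as a covariate, 29 genes were higher and 11 lower. Choroid plexus markers averaged 7.06 in pMCAO replicate 3 and 5.73 to 6.22 in the other 5 arrays, and none of the 9 passed.

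Heat shock genes gave the largest differences. Heat shock proteins are chaperones that hold or refold damaged proteins, and they are switched on by heat shock factor 1, which binds inverted repeats of the block GAA in the promoter. Of 25 measured chaperones and co-chaperones, 12 were higher and 0 lower, and 24 had a positive difference. The median was 0.33, against -0.02 over all genes. Without sham replicate 2 or without sham replicate 3, 7 passed. Of the 11 members that passed and have a promoter entry in RefSeq, 8 hold the motif GAANNTTC (the same on both strands) between 250 bases before and 50 bases after the start, which is 72.7%. These are not separate cases: Hspe1 and Hspd1 share 1 site, and Hspa1a and Hspa1b are near-identical copies. Of the 10 with an entry that did not pass, 3 hold it. Over all genes tested with an entry the share was 8.18%, over genes that were higher 10.2% and over genes that were lower 8.21%. The motif can occur by chance, and a match describes these letters only.

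The stretches from base -150 to base -31 relative to the start of 4 of these genes are shown because they carry the motif, in capitals (RefSeq, build GRCm38.p6, 5′ to 3′ on the gene's strand). They lie on the minus strand at chr17:34972187-34972306 for Hspa1a and chr17:34959269-34959388 for Hspa1b, and on the plus strand at chr5:135887769-135887888 for Hspb1 and chr1:55087998-55088117 for Hspe1.
Hspa1a: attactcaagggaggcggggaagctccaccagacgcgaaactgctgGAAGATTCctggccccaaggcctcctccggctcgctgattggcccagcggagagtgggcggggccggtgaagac
Hspa1b: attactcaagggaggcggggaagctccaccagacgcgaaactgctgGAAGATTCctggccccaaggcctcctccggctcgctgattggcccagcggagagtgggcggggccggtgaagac
Hspb1: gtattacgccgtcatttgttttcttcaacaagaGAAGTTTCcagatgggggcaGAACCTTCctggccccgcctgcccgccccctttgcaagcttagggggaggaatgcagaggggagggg
Hspe1: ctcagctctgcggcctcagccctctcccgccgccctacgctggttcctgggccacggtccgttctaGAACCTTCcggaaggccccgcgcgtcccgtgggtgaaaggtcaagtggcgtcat
Hspa1a and Hspa1b, neighbours that both encode inducible Hsp70, share all 120 bases of this stretch and differ at 4 of the 300 in the table. Their transcripts are also nearly alike, so the array may not tell them apart.

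Hspa1a measured 12.52, 12.23 and 11.97 in pMCAO replicates 1 to 3 and 7.97, 7.88 and 7.79 in sham replicates 1 to 3, the order used for all values below. All pMCAO arrays stood far above every sham array. The difference was 4.36 ± 0.23 (SE), a fold of 20.5 (limma adjusted p = 9.40e-06). Hspa1b measured 11.98, 11.76 and 11.39 against 7.79, 7.41 and 7.31, a difference of 4.21 ± 0.24 (adjusted p = 1.15e-05). Dnajb1, the Hsp40 partner that hands clients to Hsp70, measured 10.07, 9.54 and 9.07 against 8.31, 8.05 and 7.97. Its difference was 1.45, and the groups did not overlap. Hspb1, the small chaperone Hsp27, measured 7.40, 7.08 and 6.72 against 5.60, 5.67 and 5.58, also a difference of 1.45 on its brighter cluster. A second, dimmer Hspb1 cluster differed by 0.14. These clusters of the gene disagree.

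Hsph1, the nucleotide exchange partner of Hsp70, measured 11.27, 10.90 and 11.08 against 10.07, 10.05 and 9.93. Bag3, which links Hsp70 to autophagy, measured 7.85, 7.86 and 7.85 against 7.01, 6.84 and 6.85. Both about doubled, with differences of 1.07 and 0.95 (adjusted p = 2.54e-04 and 3.71e-04). The mitochondrial chaperonin pair Hspe1 and Hspd1, which are transcribed in opposite directions from a shared promoter region, differed by 0.95 and 0.68. Hspd1 lost its call without sham replicate 2 or sham replicate 3 (adjusted p up to 0.0599). Constitutive members moved little: Hspa8 differed by 0.09 (adjusted p = 0.3791) and Hspa4 by 0.07 (adjusted p = 0.4666), and neither passed.

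**Figure D2:**
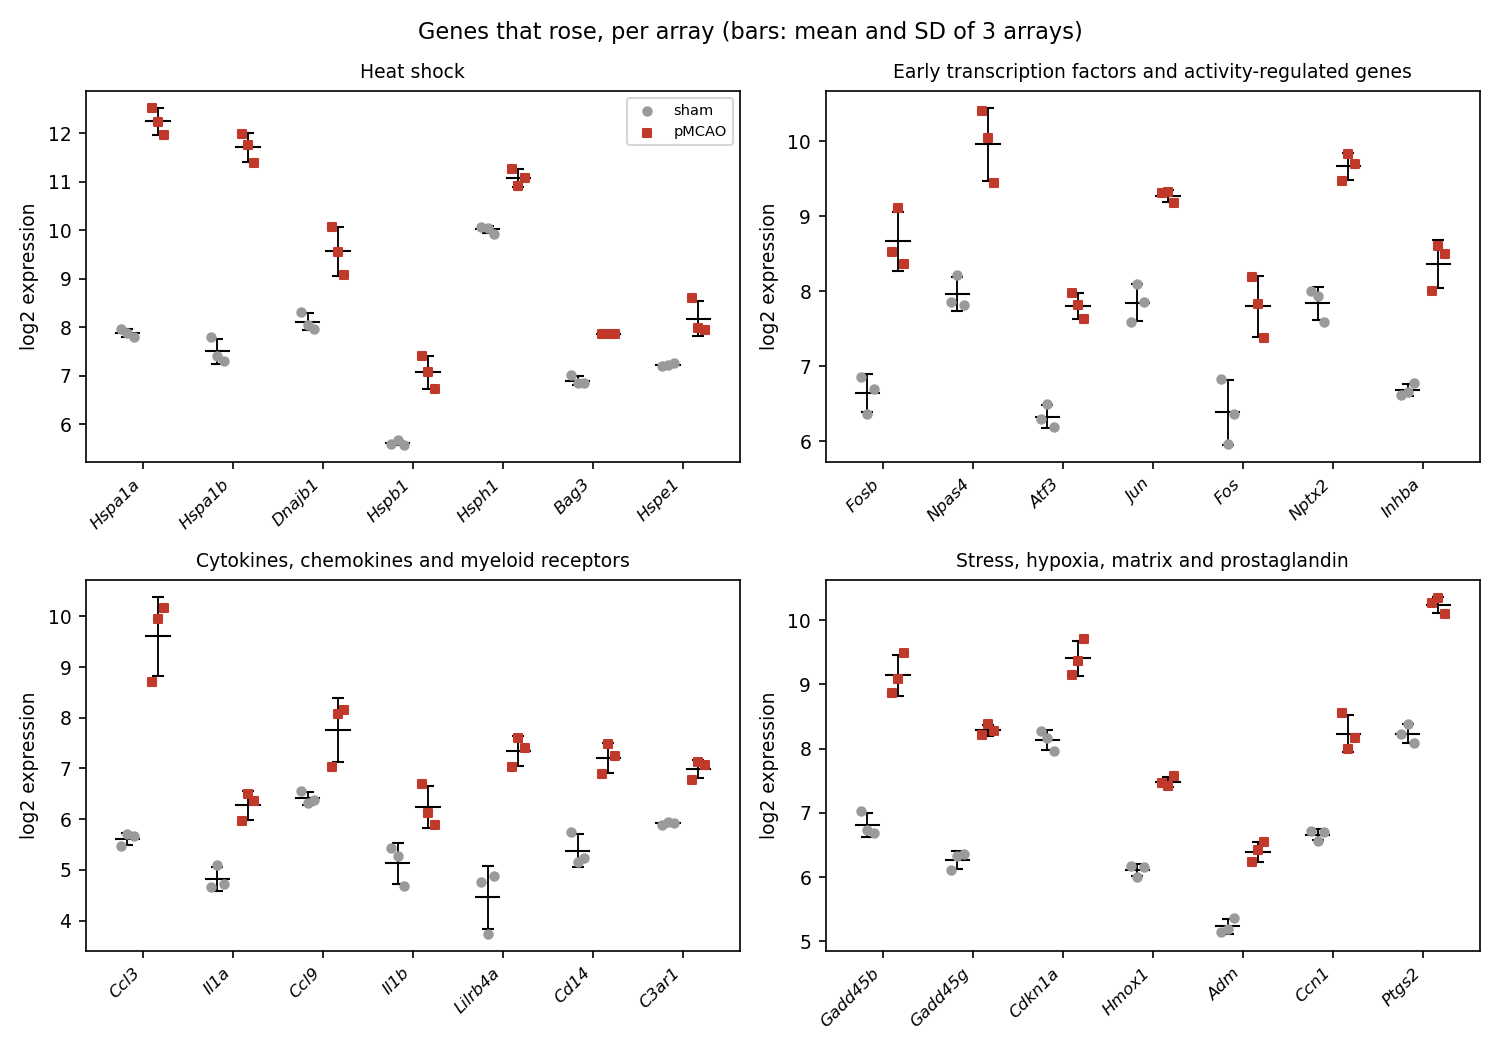
Log2 expression of 28 genes in 4 panels, with grey circles for the 3 sham mice, red squares for the 3 pMCAO mice and black bars for the mean and SD of each group. In each gene shown the red squares lie above the grey circles. The widest gaps are those of Hspa1a, Hspa1b and Ccl3, and levels of different genes cannot be compared.

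Immediate early transcription factors formed the next group. These genes need no new protein for their induction, and neurons switch them on when calcium enters. Of 27 measured, 13 were higher and 0 lower, with a median difference of 0.58. Between 9 and 15 passed when any 1 array was left out. Fosb, a subunit of the AP-1 complex, measured 8.52, 9.11 and 8.36 against 6.86, 6.36 and 6.70, a difference of 2.02 ± 0.23 (adjusted p = 8.38e-04). Npas4, which responds to neuronal calcium entry and controls inhibitory synapses, measured 10.40, 10.04 and 9.44 against 7.86, 8.22 and 7.81, a difference of 2.00 ± 0.26. In both genes every pMCAO array lay above every sham array. Atf3, a stress-induced repressor, measured 7.98, 7.81 and 7.63 against 6.30, 6.49 and 6.19 and differed by 1.48. Jun measured 9.31, 9.32 and 9.18 against 7.59, 8.09 and 7.86 and differed by 1.42. Fos measured 8.19, 7.83 and 7.37 against 6.83, 5.96 and 6.36 and differed by 1.41. Csrnp1, Klf10 and Btg2 rose by 0.99, 0.86 and 0.64. Junb (0.61) lost its call without pMCAO replicate 1 or 2 or sham replicate 2 or 3 (adjusted p up to 0.1067).

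Egr1, Egr2, Nr4a1 and Nr4a3, of the Egr and Nr4a families of immediate early genes, did not pass. Other members of these families are not described here. Egr1 differed by 0.39 (adjusted p = 0.4252), Egr2 by 0.61 (0.2752), Nr4a1 by 0.58 (0.3149) and Nr4a3 by 0.38 (0.1021). All 4 had positive differences.

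Among 16 activity-regulated effectors, the secreted or synaptic products downstream of these factors, 8 were higher and 0 lower. Only 3 passed without pMCAO replicate 2, sham replicate 2 or sham replicate 3, 4 without pMCAO replicate 3 and 5 without sham replicate 1. Nptx2, which gathers AMPA receptors at excitatory synapses, measured 9.47, 9.83 and 9.70 against 8.00, 7.93 and 7.59. Its difference was 1.83 ± 0.23 (adjusted p = 0.0017), and its groups did not overlap. Inhba, which encodes the activin A subunit, measured 8.00, 8.60 and 8.50 against 6.62, 6.66 and 6.77, a difference of 1.68 ± 0.19 (adjusted p = 7.87e-04). The neurotrophin gene Bdnf measured 6.94, 7.44 and 7.47 against 6.49, 6.36 and 6.45 and differed by 0.85 (adjusted p = 0.0128). Arc, which regulates AMPA receptor uptake, spread widely in sham mice: it measured 10.86, 10.35 and 10.05 against 9.94, 8.76 and 9.51. Its difference of 1.02 passed with all arrays and was lost without pMCAO replicate 1 or 2 or sham replicate 2 or 3 (adjusted p up to 0.1024). The dual-specificity phosphatases that switch off MAP kinases moved less, with Dusp16 (0.58) and Dusp5 (0.57) higher among 12 measured. Dusp16 lost its call without sham replicate 2, and Dusp5 lost its call without pMCAO replicate 1 or 2 or sham replicate 2 or 3. The number that passed was 0 without sham replicate 2 and 1 without pMCAO replicate 2 or sham replicate 3.

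Of 22 genes on a list of p53 targets, Gadd45 genes, death receptors and Bcl-2 family genes, 8 were higher and 1 lower. The median difference was 0.09, with 13 genes above 0 and 8 below. Whether p53 acted was not tested. Gadd45b and Gadd45g, stress sensors that act on MAP kinase signalling and DNA demethylation, showed the largest rises. Gadd45b measured 8.86, 9.08 and 9.49 against 7.03, 6.74 and 6.68, a difference of 2.33 ± 0.16 (adjusted p = 4.22e-05). Gadd45g measured 8.21, 8.38 and 8.27 against 6.11, 6.33 and 6.36, a difference of 2.02 ± 0.12 (adjusted p = 1.15e-05). The 3 pMCAO arrays of Gadd45g lay close together. Cdkn1a, the cell cycle inhibitor p21, measured 9.15, 9.36 and 9.70 against 8.28, 8.16 and 7.96 and differed by 1.27. The death receptor gene Fas differed by 0.82 and the survival gene Mcl1 by 0.53, with a dimmer Mcl1 cluster at 0.17. The apoptosis initiators Bbc3 (0.02), Pmaip1 (0.24) and Bcl2l11 (-0.12) did not pass. Ccng1 (-0.33) was the lower gene, a call that was lost without pMCAO replicate 3 or sham replicate 3.

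The unfolded protein and integrated stress responses, which slow translation and induce endoplasmic reticulum chaperones, gave 5 of 22 genes higher and 0 lower. That number was 1 without sham replicate 2 or 3, and 2 without pMCAO replicate 2 or 3. Ddit3, the transcription factor CHOP, measured 7.78, 7.58 and 7.46 against 7.02, 6.93 and 7.07 and differed by 0.60 (adjusted p = 0.0041). It kept its call whichever array was left out. Chac1, which breaks down glutathione, differed by 0.70 and lost its call without sham replicate 2 or 3. Sesn2 (0.68), a stress-induced inhibitor of mTORC1, and Atf4 (0.42), the main transcription factor of the integrated stress response, lost theirs without pMCAO replicate 2 or 3 or sham replicate 2 or 3. The endoplasmic reticulum chaperone Hspa5 differed by 0.25 (adjusted p = 0.1399), Hsp90b1 by 0.03 (0.8088) and the transcription factor Xbp1 by 0.09 (0.5760), and none of them passed.

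Of 28 cytokines and chemokines, 8 were higher and 0 lower, and between 7 and 9 passed when any 1 array was left out. Ccl3, a chemokine that recruits monocytes, measured 8.71, 9.94 and 10.17 against 5.48, 5.70 and 5.67. Its difference was 3.99 ± 0.36, a fold of 15.9 (adjusted p = 2.54e-04), and pMCAO replicate 1 was the lowest of the pMCAO arrays. Ccl9 measured 7.03, 8.08 and 8.15 against 6.56, 6.31 and 6.38 and differed by 1.34, with the same array lowest. Il1a measured 5.96, 6.50 and 6.36 against 4.66, 5.10 and 4.73 and differed by 1.44 ± 0.13 (adjusted p = 2.61e-04). Its sister cytokine Il1b measured 6.69, 6.12 and 5.89 against 5.44, 5.27 and 4.68 and differed by 1.10, a call that was lost without sham replicate 3 (adjusted p = 0.0641). The monocyte chemokines Ccl2 (0.77) and Ccl12 (0.62) and the macrophage growth factor Csf1 (0.52) rose as well. Ccl4 differed by 0.80 and lost its call without pMCAO replicate 2 or 3 or sham replicate 2. Tnf (0.17), Il6 (0.31), Cxcl1 (0.39) and Cxcl10 (0.23), often studied in stroke, did not pass (adjusted p = 0.2346, 0.0524, 0.1862 and 0.2045).

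On the receptor and signalling side, 4 of 20 genes passed, all higher. Osmr, the oncostatin M receptor subunit, measured 7.45, 7.63 and 7.50 against 6.30, 6.49 and 5.96, a difference of 1.28 ± 0.17 (adjusted p = 0.0022). Stat3, the transcription factor downstream of this receptor family, measured 8.27, 8.43 and 8.52 against 7.93, 7.95 and 7.96 and differed by 0.46. The 3 sham arrays of Stat3 were nearly equal. Its feedback inhibitor Socs3 differed by 0.26 and did not pass (adjusted p = 0.1377). The kinase gene Pim1, a STAT target, differed by 0.55, with a dimmer cluster at 0.23. Il1r1 (0.63) lost its call without pMCAO replicate 3 or sham replicate 1 or 3.

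NF-kB genes and innate sensors gave 7 higher and 0 lower of 24, and 4 without pMCAO replicate 2, sham replicate 2 or sham replicate 3. Zfp36, which degrades cytokine mRNAs, measured 6.69, 6.82 and 6.88 against 5.83, 5.84 and 5.75, a difference of 0.99 ± 0.07 (adjusted p = 5.66e-05). The endotoxin co-receptor Cd14 measured 6.90, 7.48 and 7.24 against 5.75, 5.15 and 5.23 and differed by 1.83. Nfkbiz, a coactivator of secondary NF-kB targets, differed by 0.50. The inhibitors Nfkbia (0.31) and Tnfaip3 (-0.05) did not pass. Rel (0.58) and the leukocyte adhesion gene Icam1 (0.39) each passed with all arrays and lost the call without pMCAO replicate 2 or 3 or sham replicate 2 or 3, and Rel also without sham replicate 1. Vcam1, Sele and Selp, the other vascular adhesion genes measured, did not pass.

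Ptgs2, the inducible cyclooxygenase that makes prostaglandin precursors, measured 10.26, 10.35 and 10.09 against 8.23, 8.38 and 8.09, a difference of 2.00 ± 0.21 or a fold of 4.0 (adjusted p = 6.42e-04). The groups did not overlap, and the arrays within each lay close together. Of the 13 other prostaglandin genes measured, Hpgd, which inactivates prostaglandins, was lower (-0.48) and lost its call without pMCAO replicate 1 or 3 or sham replicate 2 or 3 (adjusted p up to 0.1198). The synthase Ptges differed by 0.27 and did not pass (adjusted p = 0.0644). Of the 14 prostaglandin genes 7.14% were thus higher and 7.14% lower, against 3.21% and 4.23% of all genes. Without pMCAO replicate 1, 2 of the 14 genes were higher and 0 lower.

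Microglial genes moved in both directions. Of 18 activated myeloid receptor genes 3 were higher, and of 14 homeostatic microglial genes 5 were lower and 1 higher. Lilrb4a, an inhibitory receptor of activated microglia and macrophages, measured 7.02, 7.60 and 7.40 against 4.77, 3.74 and 4.87, a difference of 2.88 ± 0.26 (adjusted p = 2.54e-04). C3ar1, the receptor for the complement fragment C3a and chosen after its values were seen, measured 6.78, 7.12 and 7.07 against 5.88, 5.94 and 5.93 and differed by 1.07. The pMCAO arrays of both genes all stood above the sham arrays. The costimulatory gene Cd86 differed by 0.50 and lost its call without sham replicate 2.

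In contrast, Selplg, a ligand for selectins that resting microglia carry, measured 7.14, 7.43 and 7.15 against 8.12, 8.08 and 8.08. Its difference was -0.85 ± 0.08 (adjusted p = 2.54e-04), and a dimmer second cluster of the gene differed by -0.38. P2ry12, the ADP receptor that guides microglial processes to injury, measured 7.38, 7.68 and 7.72 against 8.30, 8.43 and 8.39, a difference of -0.78 ± 0.09 (adjusted p = 0.0012). Both kept their calls whichever array was left out. P2ry13 (-0.66) lost its call without sham replicate 2 or 3, and Siglech (-0.31) without pMCAO replicate 1 or 3 or any 1 sham array. Csf1r (-0.25) lost its call without any 1 of the 6 arrays, and Fcrls (0.37) without pMCAO replicate 1 or 2 or sham replicate 1 or 2. The number of lower microglial genes was 3 without pMCAO replicate 1, pMCAO replicate 3 or sham replicate 1, and 2 without sham replicate 2 or 3. Tmem119 (-0.21, adjusted p = 0.2099) and Cx3cr1 (-0.06, adjusted p = 0.7038) did not pass. Of the 14 homeostatic genes 11 had a negative difference and 3 a positive one. The median was -0.195, against -0.0167 over all genes. Their mean level was 6.79, 6.89 and 6.87 in the pMCAO arrays and 7.05, 7.10 and 7.09 in the sham arrays. The size of the difference thus varied between these markers.

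Of 15 neutrophil genes, Retnlg and Fpr2 were higher. Retnlg measured 4.58, 4.88 and 4.27 against 3.22, 3.60 and 3.35, and Fpr2, a formyl peptide receptor that microglia also carry, 5.11, 5.18 and 5.31 against 4.40, 4.44 and 4.11. The differences were 1.19 and 0.88. Retnlg was dim, and at 2 h it measured 4.61, 4.98 and 4.93 in pMCAO and 4.56, 4.14 and 4.30 in sham mice. Its sham values at 2 h thus lay near its pMCAO values at 6 h. The granule genes Mpo (0.14) and Elane (0.05), the surface marker Ly6g (0.09) and S100a8 (0.21) did not pass. Lymphocyte markers averaged 5.01 to 5.30 per array, and 0 of 9 passed.

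Astrocyte identity and astrocyte reactivity gave different counts. Of 13 astrocyte markers 0 passed, with Aqp4 at 0.17 and Slc1a3 at 0.02, while 9 of 22 reactive astrocyte genes were higher and 0 lower. The reactive list holds Osmr and Hspb1, which also stand in other lists, and several of its genes are expressed by endothelial cells as well. Vim, an intermediate filament gene, measured 8.95, 8.82 and 9.10 against 8.11, 8.25 and 8.14 and differed by 0.79 (adjusted p = 0.0036), with a second cluster at 0.40. Gfap, the astrocyte filament, measured 9.16, 9.38 and 9.55 against 8.07, 8.74 and 8.60. Its difference of 0.89 lost its call without pMCAO replicate 2 or 3 or sham replicate 1 (adjusted p up to 0.0642). The hyaluronan receptor Cd44 differed by 0.59 and the membrane protein gene Emp1 by 0.68, and both kept their calls whichever array was left out. A dimmer Emp1 cluster differed by 0.14. With the striatal mean as a covariate Cd44 did not pass (adjusted p = 0.1325). Lcn2 (0.86) and Serpina3n (0.62), late astrocyte response genes, did not pass (adjusted p = 0.1636 and 0.1022).

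Matrix, fibrinolysis and vascular growth genes gave 10 higher and 0 lower of 24, and 8 to 12 when any 1 array was left out. Ccn1, a matricellular protein gene, measured 8.55, 7.99 and 8.16 against 6.72, 6.56 and 6.70, a difference of 1.57 ± 0.15 (adjusted p = 2.54e-04). Adamts9 and Adamts1, proteases that cut proteoglycans, differed by 1.09 and 0.97. The elastase gene Mmp12 measured 5.46, 5.58 and 5.64 against 4.78, 4.66 and 4.38 and differed by 0.95. Mmp9, a protease much studied in stroke, differed by -0.06 (adjusted p = 0.6594). Angpt2, which loosens vessel walls, measured 5.54, 5.81 and 5.47 against 4.83, 4.86 and 4.54 and differed by 0.86. The growth factor gene Hbegf differed by 0.55.

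Of 22 hypoxia and glycolysis genes 6 were higher and 0 lower, and 3 were higher without pMCAO replicate 2 or sham replicate 3. Adm, the vasodilator adrenomedullin and a target of the hypoxia-inducible factors, measured 6.23, 6.42 and 6.54 against 5.14, 5.20 and 5.36, a difference of 1.16 ± 0.10 (adjusted p = 2.54e-04). Ddit4, an inhibitor of mTORC1, differed by 0.57. Vegfa measured 8.75, 9.11 and 9.32 against 8.55, 8.57 and 8.51. Its difference of 0.52 lost its call without pMCAO replicate 2 or sham replicate 3 (adjusted p up to 0.0646). Pfkfb3 (0.46) lost its call without any 1 array other than sham replicate 1. Glycolytic enzyme genes stayed close to sham: Ldha differed by 0.17, Pgk1 by 0.14 and Hk2 by 0.22, and none passed. Hmox1, which degrades haem, measured 7.46, 7.42 and 7.57 against 6.18, 6.00 and 6.16, a difference of 1.37 ± 0.17 (adjusted p = 0.0018). Of 20 oxidative stress genes, Hmox1 and Srxn1 (0.60) passed, and Srxn1 lost its call without sham replicate 2 or 3. Without pMCAO replicate 1 the number was 4, and without sham replicate 2 or 3 it was 1.

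Glucocorticoid-responsive genes were mixed. Of 17 measured, 6 were higher and 1 lower, including Cdkn1a and Ddit4 named above. Errfi1, a brake on the EGF receptor, measured 8.49, 8.89 and 8.45 against 7.71, 7.68 and 7.64 and differed by 0.93. The metabolic switch Pdk4 measured 7.09, 7.21 and 7.18 against 6.14, 6.49 and 6.56 and differed by 0.76. The classical steroid target genes Fkbp5 (-0.26) and Tsc22d3 (-0.10) did not pass (adjusted p = 0.1223 and 0.5177). Zbtb16, also on this list, was higher (0.47, adjusted p = 0.0185), and its call was not checked without single arrays. Without pMCAO replicate 2, 2 genes were lower.

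Of 18 clock genes 4 were lower and 2 higher. Dbp, an output gene driven directly by the clock, measured 8.56, 8.78 and 8.64 against 9.16, 9.20 and 9.28, a difference of -0.55 ± 0.09 (adjusted p = 0.0060). Hlf, its relative, measured 8.36, 8.42 and 8.16 against 8.74, 8.73 and 8.73 and differed by -0.42. Nr1d2, a clock repressor, differed by -0.37. The opposing repressor Nfil3 differed by 0.57. The core clock genes Clock and Arntl both differed by 0.01 and did not pass. Cry1 (0.49) lost its call without sham replicate 2, where 1 clock gene was higher.

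Lists with few changes completed the picture. Of 15 cholesterol synthesis and uptake genes 3 were higher, 7 without pMCAO replicate 1 and 1 without pMCAO replicate 2 or 3 or sham replicate 1 or 2. Mvd, an early enzyme of the pathway, measured 6.86, 7.03 and 7.13 against 6.47, 6.57 and 6.50 and differed by 0.49. Msmo1 (0.43) lost its call when any 1 array except pMCAO replicate 1 was left out, and Sc5d (0.32) without pMCAO replicate 2 or 3 or sham replicate 1 or 2. Of 19 Notch pathway genes the ligand Dll4 (0.53) was higher and the glycosyltransferase Lfng (-0.36) lower. Each is 5.26% of the list, near the 3.21% higher and 4.23% lower over all genes. Dll4 lost its call without pMCAO replicate 1 or 3 or sham replicate 3, and Lfng lost its call without pMCAO replicate 1 or 2 or sham replicate 1 or 3. Of 31 neuropeptides and growth factors 4 were higher, or 2 without sham replicate 3. Pdgfa, a growth factor of oligodendrocyte precursors, differed by 0.48. Pdgfb (0.67), which recruits pericytes, lost its call without sham replicate 3. The 1 lower gene, Tac1 (-0.75), which is also a striatal marker, lost its call without pMCAO replicate 2 or 3 or sham replicate 1 or 3. Without sham replicate 2, 2 were lower. None of the markers of oligodendrocyte precursors (10 measured), pericytes and smooth muscle (11), meningeal fibroblasts (11), ependymal cells (6) or cholinergic and dopaminergic neurons (7) passed. Of 11 oligodendrocyte markers Aspa (-0.28) was lower and lost its call without pMCAO replicate 2 or 3 or any 1 sham array.

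**Figure D3:**
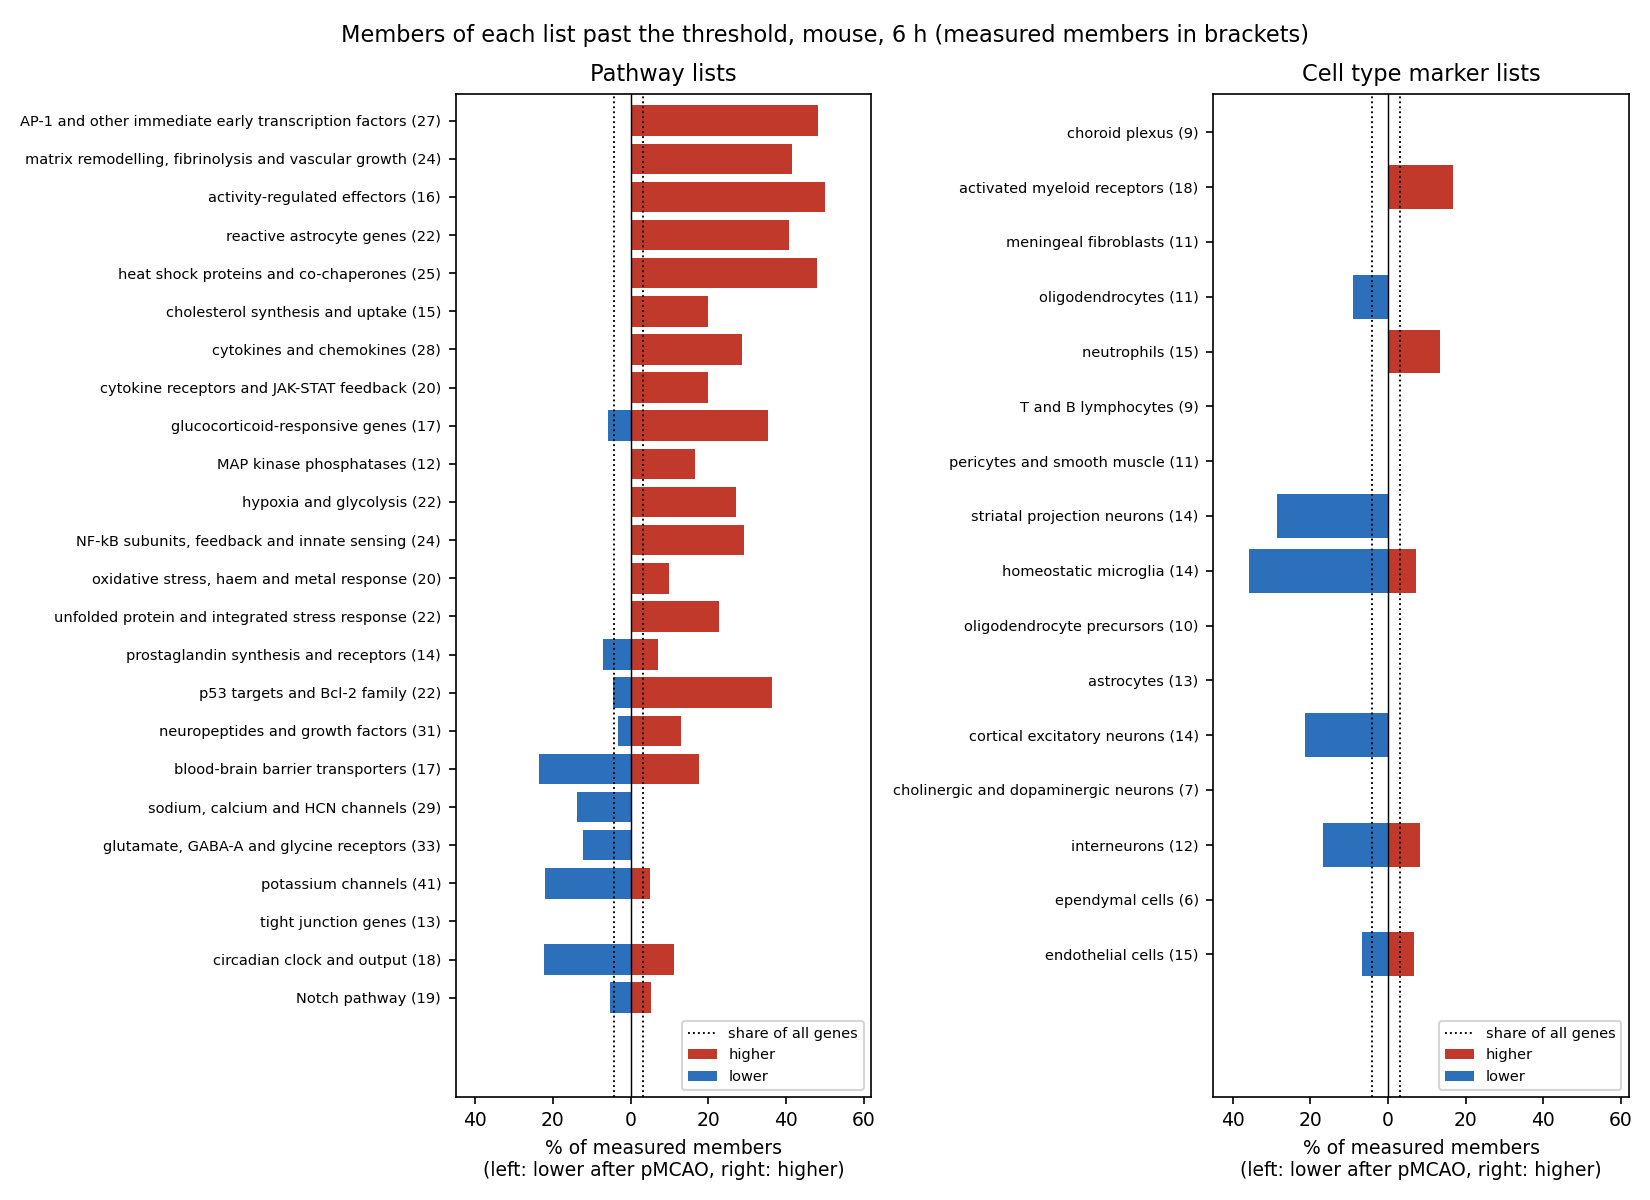
Bars give the percent of measured members of each list past the threshold, lower to the left in blue and higher to the right in red, with the number measured in brackets. Dotted lines mark the shares over all genes, 4.23% lower and 3.21% higher. Lists of early genes, effectors and heat shock genes reach about 50% higher, and the microglial and striatal lists reach furthest to the left.

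Genes of the blood-brain barrier changed in both directions. Of 17 transporters 4 were lower and 3 higher, and 2 were lower without sham replicate 2. Slco1a4, an organic anion transporter of brain endothelium, measured 8.01, 7.58 and 7.63 against 8.65, 8.63 and 8.41, a difference of -0.82 ± 0.11 (adjusted p = 0.0021). Mfsd2a, which carries lipids and holds back transcytosis, measured 8.20, 8.40 and 8.49 against 9.01, 8.84 and 8.68 and differed by -0.48. Slc22a8 (-0.49) and the efflux pump gene Abcb1a (-0.44) lost their calls without sham replicate 1 or 2, the first also without pMCAO replicate 2 and the second also without pMCAO replicate 3.

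The 3 higher genes carry nutrients. Slc16a1, the monocarboxylate and lactate carrier MCT1, measured 8.51, 8.92 and 9.14 against 7.91, 8.05 and 8.06, a difference of 0.85 ± 0.13 (adjusted p = 0.0049). Slc7a5, the large amino acid carrier, measured 8.64, 8.97 and 9.41 against 8.36, 8.07 and 7.69 and differed by 0.97. Its partner subunit Slc3a2 differed by 0.41. Of 13 tight junction genes 0 passed: Cldn5 differed by -0.18 (adjusted p = 0.4858), Ocln by -0.05 and Tjp1 by -0.03. Endothelial markers averaged 6.54 to 6.81 per array with no split between the groups. Of these 15 markers Cdh5 (0.58) was higher, a call lost without pMCAO replicate 1 or 2 or sham replicate 2 or 3, and Slco1a4 was the lower one. Each is 6.67% of the list, near the 3.21% higher and 4.23% lower over all genes. Without pMCAO replicate 1, 2 endothelial markers were lower.

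Among neuronal genes the falls were small and the counts depended on single arrays. Of 33 glutamate, GABA-A and glycine receptor genes 4 were lower and 0 higher, with 2 lower without pMCAO replicate 2 and 1 without pMCAO replicate 3 or sham replicate 2 or 3. The kainate receptor subunit Grik2 measured 8.55, 8.56 and 8.39 against 8.83, 8.98 and 8.99, a difference of -0.43 ± 0.08 (adjusted p = 0.0091). The AMPA receptor gene Gria4 (-0.32) and the metabotropic receptor gene Grm5 (-0.30) lost their calls without pMCAO replicate 2 or 3 or sham replicate 2 or 3. The glycine receptor gene Glrb (-0.24) lost its call without any 1 of the 6 arrays. Of 41 potassium channel genes 9 were lower and 2 higher. The lower count was 4 without pMCAO replicate 3 and 5 without pMCAO replicate 2 or any 1 sham array. The higher count was 0 without pMCAO replicate 1, pMCAO replicate 3 or sham replicate 3, and 1 without sham replicate 1 or 2. Kcnip2, a subunit of A-type channels, measured 7.57, 7.39 and 7.18 against 8.06, 7.82 and 7.96 and differed by -0.57. Kcnq3, a subunit of the M-current channel, measured 9.75, 9.70 and 9.46 against 10.12, 10.08 and 10.17 and differed by -0.49. Kcnv1 (-0.54) lost its call when any 1 array except pMCAO replicate 1 was left out, and Kcnab1 (-0.46) without any 1 of the 6. Of 29 sodium, calcium and HCN channel genes 4 were lower, or 1 without sham replicate 3. The sodium channel gene Scn1a, used by fast-spiking interneurons, measured 9.16, 9.24 and 8.99 against 9.79, 9.68 and 9.76, a difference of -0.61 ± 0.09 (adjusted p = 0.0053). The calcium channel subunit genes Cacna2d3 (-0.38) and Cacnb2 (-0.34, with a dimmer cluster at -0.15) lost their calls without sham replicate 3. Scn2a (-0.27) lost its call without any 1 array other than sham replicate 1.

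The striatal marker mean was lower in every pMCAO array than in every sham array, so as a covariate it also follows the occlusion. Of the 159 genes named here that passed, 134 lost their call in that fit, so the loss is not particular to neuronal genes. With that mean as a covariate, Kcnip2 differed by -0.35, Kcnq3 by -0.37, Scn1a by -0.54 and Grik2 by -0.45, and none passed in that fit (adjusted p = 0.3682, 0.2702, 0.2098 and 0.2134).

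Among striatal markers themselves, Gpr52, a receptor of D2-type neurons, measured 6.91, 7.03 and 6.84 against 8.18, 7.75 and 8.76, a difference of -1.30 ± 0.19 (adjusted p = 0.0043). The dopamine receptor gene Drd2 measured 6.86, 6.62 and 6.20 against 8.64, 7.11 and 8.85, a difference of -1.64 ± 0.41 (adjusted p = 0.0355). Sham replicate 2 was the lowest sham array for Drd2 by a wide margin. Its call was lost without any 1 pMCAO array or sham replicate 1 or 3. Isl1 (-0.52), a factor of direct pathway neurons, lost its call without pMCAO replicate 3 or sham replicate 1 or 3. The number of striatal markers called lower was 12 without sham replicate 2, 2 without pMCAO replicate 2 and 1 without pMCAO replicate 3, sham replicate 1 or sham replicate 3.

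Of 14 cortical excitatory markers 3 were lower. Neurod6, a transcription factor of pyramidal neurons, measured 8.15, 8.00 and 7.77 against 8.57, 8.83 and 8.70, a difference of -0.73 ± 0.10 (adjusted p = 0.0029). Rorb, a layer 4 factor, measured 9.65, 9.76 and 9.41 against 10.24, 10.06 and 10.22 and differed by -0.57. The vesicular glutamate transporter gene Slc17a7, expressed by most of these neurons, differed by 0.00 (adjusted p = 0.9833). Lamp5 (-0.35) lost its call without any 1 of the 6 arrays. Among interneuron genes, Pvalb was lower (-0.34), while Gad1 (-0.04) and Gad2 (-0.02), which all inhibitory neurons express, did not pass. The neuropeptide Npy was higher (0.40) and lost its call without pMCAO replicate 3 or sham replicate 2 or 3. Of 12 interneuron genes 2 were lower, or 1 without sham replicate 3, where Dlx5 (-0.39) lost its call.

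Some of the largest falls lay outside the pathway and cell type lists. Lrrn3, a leucine-rich repeat membrane protein gene, measured 8.62, 8.69 and 8.21 against 9.23, 9.36 and 9.29, a difference of -0.79 ± 0.12 (adjusted p = 0.0049), and kept its call whichever array was left out. Krt17 (-0.87) lost its call without pMCAO replicate 1 or 3 or sham replicate 1 or 2, and Zfp97 (-0.79) without any 1 array other than pMCAO replicate 1. Sh3rf2 (-0.85) and Dach1 (-0.82) lost theirs without any 1 array other than sham replicate 2. With the striatal mean as a covariate, Sh3rf2 differed by -0.03 and Dach1 by 0.02. In the same fit Krt17 differed by -1.31, Zfp97 by -1.11 and Lrrn3 by -0.87, and none of these genes passed.

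**Figure D4:**
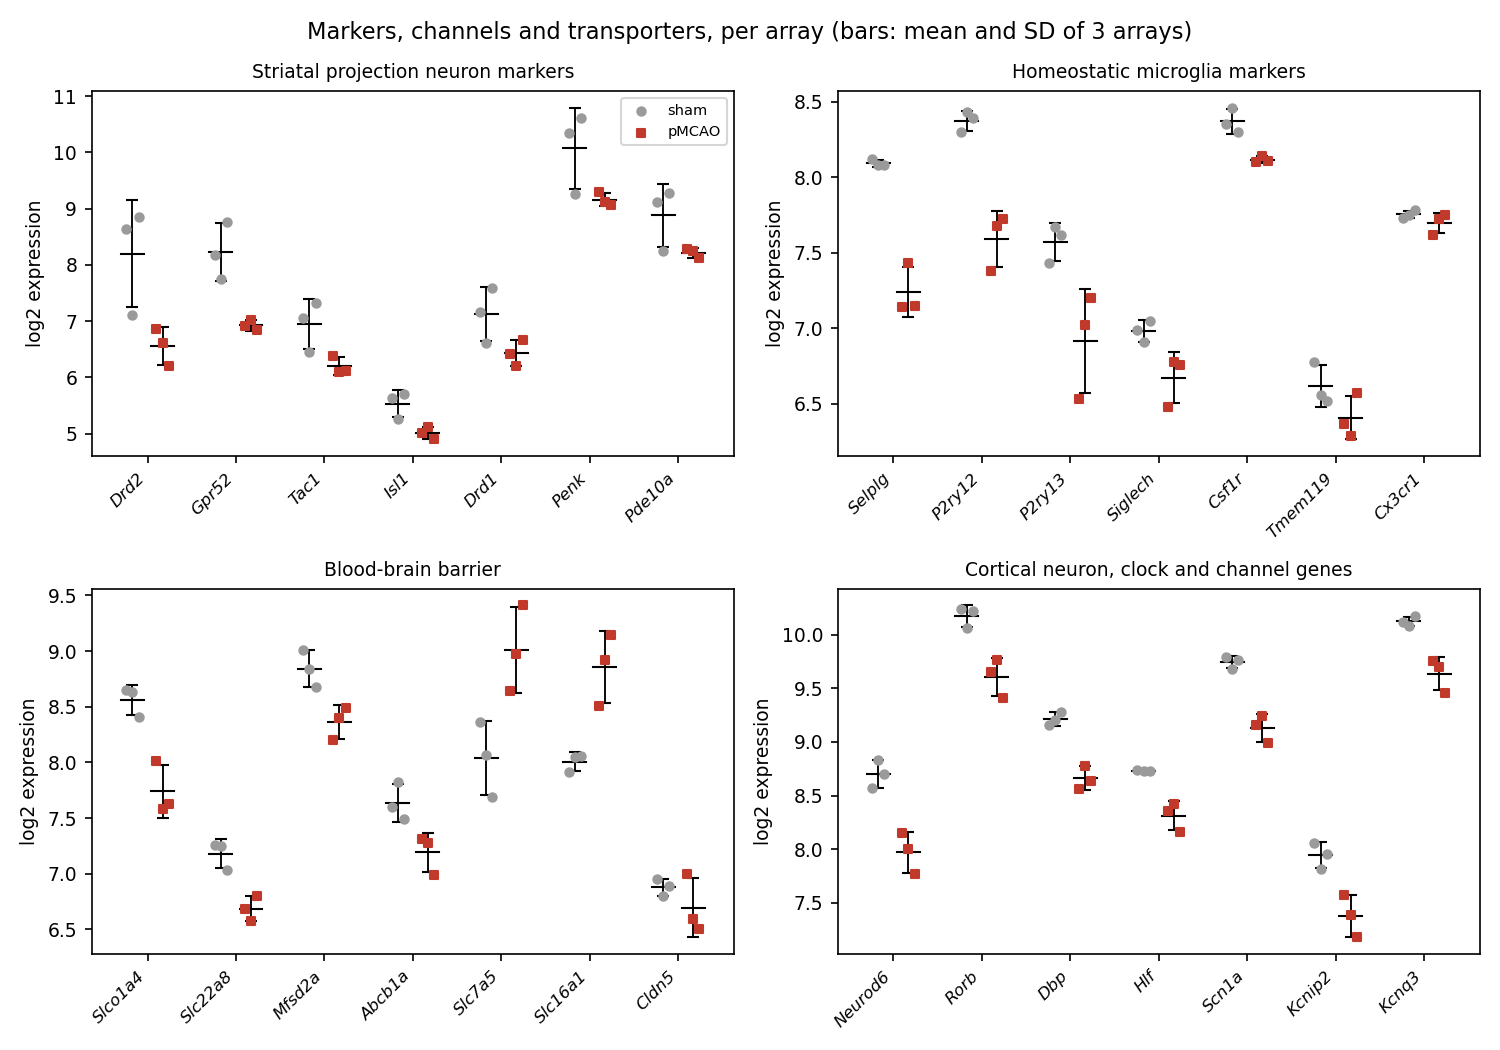
Log2 expression of 28 marker, transporter and channel genes in 4 panels, with grey circles for sham, red squares for pMCAO and black bars for the mean and SD of 3 mice. In the striatal panel 1 sham mouse lies close to the pMCAO mice. Selplg and P2ry12 separate fully, whereas Cx3cr1 and Cldn5 overlap.

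Small RNA genes were described by family, and the snoRNA families were chosen after their values were seen. Small nucleolar RNAs (snoRNAs) guide chemical changes of ribosomal RNA, H/ACA types for pseudouridine and C/D types for methylation. Most are cut from introns of host genes. Of 26 H/ACA snoRNA genes 16 were higher and 0 lower, and all 26 had a positive difference, with a median of 0.49. Without sham replicate 3 the number was 9, and without pMCAO replicate 1 it was 10. Of 47 C/D snoRNA genes 15 were higher and 0 lower, with a median of 0.32, and 5, 7 or 8 passed without sham replicate 3, sham replicate 1 or pMCAO replicate 1. Over all genes 3.21% were higher. Array probes cannot tell a snoRNA from its unspliced host transcript, and members of 1 family can resemble each other.

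Snora75 measured 9.26, 8.55 and 8.56 against 6.07, 6.44 and 6.07, a difference of 2.60 ± 0.18, or 6.05-fold (adjusted p = 4.22e-05). Snora74a measured 8.38, 7.33 and 7.70 against 5.89, 5.92 and 6.64 and differed by 1.65. Snora20 measured 6.80, 6.41 and 6.35 against 5.04, 4.98 and 5.25 and differed by 1.43. All 3 separated fully, with pMCAO replicate 1 highest in each. The spliced host genes differed much less: Ncl, host of Snora75 and itself a nucleolar protein gene, differed by 0.10 (adjusted p = 0.4144), Tcp1, host of Snora20, by 0.11 (0.2625) and Snhg4, host of Snora74a, by 0.06 (0.7212). Of 13 host genes of the H/ACA snoRNAs that were higher, 1 was itself higher. Of 10 host genes of the C/D snoRNAs that were higher, 3 were higher and 1, Rbmx, lower (-0.28). Among the host genes of all snoRNAs measured, 1 of 20 H/ACA hosts was higher. Of 27 C/D hosts, 7 were higher and 1 lower. Also chosen after their values were seen, the spliceosomal RNA genes Rnu11 and Rnu12, of the minor spliceosome, rose by 1.40 and 0.76, and the nucleolar U3 gene Rnu3a by 1.14.

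MicroRNAs are short guides that lower the output of mRNAs matching their seed, bases 2 to 8. Of 478 microRNA genes 47 were lower (9.83%) and 6 higher (1.26%), against 4.23% and 3.21% of all genes. The lower count was 31 without pMCAO replicate 2, 29 without sham replicate 1 or sham replicate 2 and 27 without sham replicate 3. The higher count was 3 without pMCAO replicate 2, sham replicate 1 or sham replicate 2 and 1 without sham replicate 3. Of the 47, 46 have a mature sequence in RefSeq and 17 lie on chromosome 12. How many of the 478 lie on that chromosome was not counted. All of the 17 except Mir342 lie close together, from Mir493 (base 109580243) to Mir496a (base 109739186). They may therefore not be separate cases. The array measures the locus, and these values do not separate mature from precursor RNA. The mature sequences of the members described next are shown 5′ to 3′ with the seed in capitals (RefSeq, build GRCm38.p6), since several of the lower genes share 1 seed.
let-7c-5p: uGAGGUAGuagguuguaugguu
let-7e-5p: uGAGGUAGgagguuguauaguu
let-7f-5p: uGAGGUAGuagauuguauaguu
miR-9-5p: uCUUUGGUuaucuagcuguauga
miR-128-3p: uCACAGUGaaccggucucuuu
miR-218-5p: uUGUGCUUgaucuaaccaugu

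Mir128-1, which yields the brain-enriched miR-128-3p, measured 7.61, 7.29 and 7.51 against 8.98, 8.96 and 9.17, a difference of -1.57 ± 0.16 (adjusted p = 5.48e-04). The pMCAO arrays lay below every sham array, while the host gene R3hdm1 differed by -0.05 (adjusted p = 0.7151). Mir876, in an intron of Lingo2, measured 4.11, 4.31 and 4.93 against 5.67, 5.97 and 6.08 and differed by -1.46, with the host at -0.16. Mir218-1 measured 5.65, 5.15 and 5.92 against 6.42, 6.46 and 6.58 and differed by -0.91, with its host Slit2 at -0.03. Of 19 measured host genes of the lower microRNA genes, 5 were lower and 0 higher. Of the 196 measured host genes of all microRNA genes, 10 were lower and 5 higher, and of all genes 4.23% were lower.

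The let-7 genes, whose products share the seed GAGGUAG, were divided. Of 11 measured, 4 were lower and 7 did not pass, among them Mirlet7b (0.06), Mirlet7g (-0.06) and Mirlet7i (0.10). Mirlet7a-2 differed by -0.49 (adjusted p = 0.0227), and whether it keeps that call without single arrays was not tested. Mirlet7c-1 measured 4.44, 4.89 and 5.12 against 5.50, 5.92 and 5.87 and differed by -0.95, and Mirlet7e measured 5.51, 5.39 and 5.82 against 6.39, 6.16 and 6.28 and differed by -0.70. A dimmer second cluster of Mirlet7e differed by 0.22. Mirlet7f-1 differed by -1.0 on its brighter cluster and 0.05 on the other, and its call was lost without any 1 of the 6 arrays. Mir9-1 and Mir9-2, from different chromosomes but with the same mature miR-9-5p, differed by -0.68 and -0.72, and neither lost its call when any 1 array was left out. Neither passed with the 6 arrays of 6 h alone (adjusted p = 0.0603 and 0.0664) or with the striatal mean as a covariate (0.3380 and 0.1456). The third gene for miR-9, Mir9-3, differed by -0.01 (adjusted p = 0.9793). Mir128-2 (-0.87) and Mir218-2 (-0.35), second genes for the sequences of miR-128-3p and miR-218-5p, did not pass either (adjusted p = 0.0907 and 0.0762). At 2 h, 24 microRNA genes were lower, of which 15 are among the 47. Several of the 15 lie in the chromosome 12 stretch. Mir154 differed by -1.57 at 2 h and -0.88 at 6 h, Mir379 by -1.36 and -0.84, and Mir329 by -0.66 and -0.69. The change between the times did not pass for any of them (limma adjusted p = 0.2531, 0.3303 and 0.9503). Mir337 and Mir493, in the same stretch, did not pass at 2 h. Mirlet7e and Mir9-1 were already lower at 2 h, both at -0.81 (adjusted p = 0.0394 and 0.0220), whereas Mir128-1 differed by -0.03 at 2 h.

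**Figure D5:**
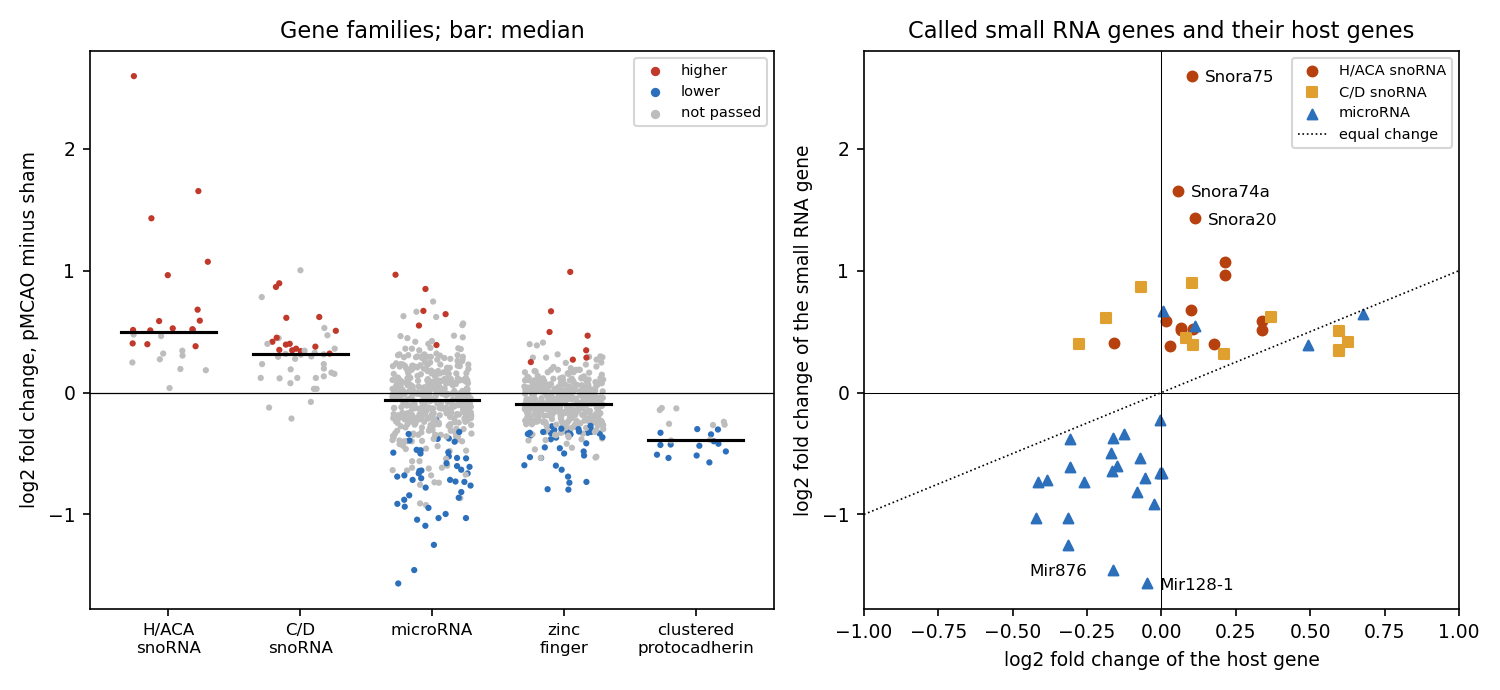
The left panel shows the log2 fold change (pMCAO minus sham) of every member of 5 gene families, red where higher, blue where lower and grey where not passed, with a black bar at the median. The right panel sets each called small RNA gene (y axis) against its single measured host gene (x axis), both as log2 fold changes, with a dotted line of equal change. Snora75, Snora74a and Snora20 stand above 1 while their hosts lie near 0.

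Of 435 genes with zinc finger symbols 39 were lower (8.97%) and 8 higher (1.84%), and the median difference was -0.09. The lower count was 24 without pMCAO replicate 1, 22 without pMCAO replicate 2, 18 without sham replicate 2 and 15 without sham replicate 3, and the higher count was 5 and 3 without sham replicate 2 and 3. Zkscan16 measured 7.81, 7.66 and 7.45 against 8.22, 8.44 and 8.65 and differed by -0.80. Zfp40 measured 6.74, 6.84 and 7.01 against 7.44, 7.56 and 7.81 and differed by -0.74. Neither pair of groups overlapped.

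The clustered protocadherins, whose combinations give single neurons a surface identity, were looked at after their values were seen. All 23 had a negative difference, with a median of -0.39, and 14 were lower. These 14 were all beta members, but how many of the 23 are beta members was not counted. The number of lower genes was 9, 8 and 8 without pMCAO replicates 1, 2 and 3, and 6 without sham replicate 2 or 3. Pcdhb17 measured 7.23, 7.32 and 7.29 against 7.89, 7.81 and 7.86, a difference of -0.57 ± 0.06 (adjusted p = 5.26e-04). The beta genes resemble each other in sequence, so their probes may not be independent. Of 9 Slitrk and Flrt genes, synaptic adhesion proteins also picked afterwards, 5 were lower. Slitrk1 measured 9.31, 9.29 and 9.07 against 9.85, 9.92 and 9.86 and differed by -0.65, and Flrt2 measured 8.90, 8.78 and 8.61 against 9.34, 9.56 and 9.57 and differed by -0.73. Both kept their calls whichever array was left out. With the striatal mean as a covariate, Slitrk1 differed by -0.65 and Flrt2 by -0.79 (adjusted p = 0.0772 and 0.0974).

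The 2 h mice were used to ask which differences were already present earlier. At 2 h, 33 genes were higher (0.149%) and 33 lower (0.149%), in other mice with their own sham group. Of the 711 genes higher at 6 h 25 were higher at 2 h, and of the 938 lower 18 were lower at 2 h. The difference between the 2 effects was tested directly and 38 genes passed (0.171%), 19 with the larger value at 6 h (0.0857%) and 19 with the smaller one (0.0857%). At an unadjusted p of 0.05 it was 3115 genes. The count was 1 without pMCAO replicate 3, 2 without sham replicate 2, 6 without sham replicate 3, 13 without pMCAO replicate 2, 16 without sham replicate 1 and 85 without pMCAO replicate 1.

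The Hsp70 genes gave like values at both times. Hspa1a was 4.29 higher at 2 h, and the effect at 6 h minus that at 2 h was 0.07 ± 0.32 (adjusted p = 0.9503). Npas4 was 3.08 higher at 2 h and 2.00 at 6 h, a difference of -1.09 that did not pass (adjusted p = 0.2097). Jun gave 1.35 and 1.42. All 3 genes passed at both times.

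Gadd45b, Cdkn1a, Cyp1b1 and Dyrk3 had larger effects at 6 h. Gadd45b measured 8.02, 8.51 and 8.26 in pMCAO and 7.42, 7.50 and 7.68 in sham mice at 2 h, a difference of 0.73, so the effects differed by 1.60 (adjusted p = 0.0379). Cdkn1a differed by -0.11 at 2 h, with values of 8.39, 8.92 and 8.91 against 8.76, 8.83 and 8.96, and its effects differed by 1.38 (adjusted p = 0.0463). Cyp1b1, an oxidative enzyme of vessel walls, measured 6.31, 6.43 and 6.68 against 5.26, 5.23 and 5.42 at 6 h and differed by -0.06 at 2 h. Snora75 measured 6.64, 6.50 and 6.66 against 6.37, 6.72 and 6.32 at 2 h, where the groups overlapped, and its effects differed by 2.47 (adjusted p = 0.0161). The median difference of the H/ACA snoRNA genes was 0.07 at 2 h, and 0 of 26 passed then.

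Npy1r, Flrt2 and Ddit4l had a positive difference at 2 h and a negative one at 6 h. Npy1r, a receptor for neuropeptide Y, measured 8.20, 8.66 and 8.74 against 8.06, 7.99 and 8.01 at 2 h, and 7.78, 7.84 and 7.52 against 8.32, 8.48 and 8.47 at 6 h. The difference was 0.51 at 2 h, which did not pass, and -0.71 at 6 h, which did, and the effects differed by -1.22 (adjusted p = 0.0379). Ddit4l, a relative of Ddit4, passed at both times, with 0.57 at 2 h and -0.51 at 6 h. For these genes the pMCAO arrays all lay above sham at 2 h and all below sham at 6 h.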

How the data were processed

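RNA from 6 mice was hybridised to whole-transcript arrays (RNeasy kit, integrity number above 7.5 and WT PLUS labelling, per the labels' protocols). The authors deposited log2 expression values, made with oligo and limma per the submitters' processing notes. For their versions, the background correction, the normalization and the genome build behind the values, the sources used here give nothing.

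For this work a model of 1 mean per group was fitted over the 12 mouse arrays with limma 3.58.1 (R 4.3.3) (8 residual degrees of freedom, eBayes defaults), with contrasts pMCAO minus sham at 6 h and the 6 h effect minus the 2 h effect, two-sided, at an adjusted p of 0.05. Clusters with no symbol (16010) or several (1814) were left out of the gene tests. The number of arrays limits the precision. Replicate numbers were not used as a block, since same-numbered arrays did not deviate together (correlations 0.05, -0.01 and 0.01).

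The members, lists and extra families were chosen with earlier results of these data known. Genes named by rule were the 10 with the largest rise and the 10 with the largest fall, up to 4 called members per pathway list, the highest and lowest called per cell type list and 5 interaction genes each way, leaving out microRNA, snoRNA, olfactory receptor and provisional symbols, which are described here as families. Other members of the lists were given with their values. Some families and genes were added after their values were seen. Host genes were those whose span in the RefSeq table of GRCm38.p6 encloses the small RNA, with strand not used. Alternatives were other eBayes settings, array weights, quantile and median scaling, other cluster rules, a level filter, a fold limit, the replicate block, a striatal covariate and each array left out.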

Additional observations from a re-analysis of the deposited data

Results flagged for a closer look

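Several genes had an effect at 6 h that differed from the effect at 2 h by a direct test (limma, adjusted p under the threshold). Over all genes 38 passed this test. The number was 1 without pMCAO replicate 3, 2 without sham replicate 2 and 85 without pMCAO replicate 1. With the replicate block or the striatal covariate it was 0. Whether a single gene keeps this call was not checked, and calls said above to be kept are those of the 6 h effect. The 6 h effect minus the 2 h effect was above 0 for Snora75 (2.47), Gadd45b (1.60), Cdkn1a (1.38), Snora20 (1.34), Dyrk3 (1.26), Cyp1b1 (1.23), Angpt2 (1.05), Pdk4 (1.01), Snord90 (1.00), Snora31 (0.99), Adm (0.94), Mmp12 (0.92) and C3ar1 (0.75). It was below 0 for Mir128-1 (-1.53), Npy1r (-1.22), Flrt2 (-1.09), Ddit4l (-1.09), Zfp40 (-0.98), Slco1a4 (-0.90), Selplg (-0.75), Slitrk3 (-0.71), Slitrk1 (-0.66) and Pcdhb17 (-0.57). These are differences of log2 fold changes between separate sets of mice, and whether the times were processed together is not given in the sources used here.

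Transcript clusters with no gene symbol, which the report's comparisons do not use, held 188 that were higher and 131 that were lower after pMCAO, of 16010.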

How the results depend on the processing

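Counts of genes past the threshold depended on the fit. With the 6 arrays of 6 h alone, 151 genes were higher and 95 lower. With the replicate number as a block, 349 were higher, 316 lower and 0 differed between the times. The numbers did not pair the arrays. With the striatal marker mean as a covariate the counts were 29, 11 and 0. Requiring a log2 fold change of at least 1 as well gave 49, 11 and 13. Trend and robust settings gave 1538 lower genes and 351 that differed between times, all clusters 591 and 15, and leaving out the dimmest genes 1418 and 250. Leaving out 1 array gave 318 to 640 higher, 298 to 728 lower and 1 to 85 that differed between times. Array weights and quantile or median scaling moved the higher and lower counts by less than 1.5 times. Of 159 named genes that passed, 103 did so whichever array was left out. With the 6 arrays of 6 h alone 79 kept their call, with the replicate block 119 and with the striatal covariate 24. Genes lost with the 6 arrays alone include Fos, Stat3, Ccl9, Klf10 and Slc7a5 (limma adjusted p = 0.0520, 0.0506, 0.0608, 0.0525 and 0.0804). Dach1 reversed under the striatal covariate, from -0.82 to 0.0233 (adjusted p = 0.9684). Except as said, the cause was not tested. The files give no signal over background, so dim genes have no stated detection limit.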
